A study of Mus musculus with 8 samples.

Results

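Aldehyde dehydrogenases oxidise aldehydes to acids with NAD or NADP, and their activity is a widely used marker of stem-like cells in breast tumours. The 10 genes described here, Aldh1a1, Aldh1a2, Aldh1a3, Aldh1a7, Aldh1l2, Aldh2, Aldh3a1, Aldh3b1, Aldh7a1 and Aldh18a1, were taken by gene symbol from a set of 24421 genes, which holds 21 genes of the family in all. They were followed in MCa-P1362, a mouse mammary adenocarcinoma line from a spontaneous tumour of a Balb/c breeder, sorted by flow cytometry on EpCAM, an epithelial adhesion protein. The labels name 4 groups of 2 libraries each: EpCAM+ cells of coculture, EpCAM- cells of coculture, EpCAM+ cells of monoculture and EpCAM- cells of monoculture. All carry the genotype of this single line and no group has a drug or an altered gene; cells were grown in high-glucose DMEM with serum. Sorted cells were frozen straight away or first cultured and passaged, and the protocol does not tie either to the words coculture and monoculture, so those words are used below only as labels. The question asked is which family members could account for aldehyde dehydrogenase activity in each fraction and culture. Only RNA was measured: enzyme activity was not.

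The family's members do different work. The ALDH1A enzymes oxidise retinal to retinoic acid, a ligand of nuclear receptors that drives differentiation, and are the isoforms most often named as the source of the activity read by fluorescent stem cell assays, ALDH1A1 and ALDH1A3 above all in breast tissue. ALDH2 clears acetaldehyde and lipid aldehydes in mitochondria, and the ALDH3 enzymes act on aldehydes made by lipid peroxidation. ALDH1L2 belongs to folate metabolism and ALDH7A1 to lysine breakdown, while ALDH18A1 makes a precursor of proline and is a synthetic enzyme, not a detoxifying one.

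Levels are given in FPKM, a read count divided by transcript length and library size, so that different genes can be compared within a library. Each library summed to between 387489 and 414612 FPKM, with 10634 to 11119 genes at 1 FPKM or above. Read totals are unknown, and the step between low values gave depths relative to each other of 0.910 to 1.17. Across genes the libraries of a group correlated at r = 0.998. Epithelial markers (10 genes) summed to between 8349 and 9497 FPKM in EpCAM+ libraries and between 15.3 and 29.4 in EpCAM- libraries, and 10 stromal markers to between 12734 and 13612 in EpCAM- libraries; in EpCAM+ they summed to 218 and 220 in coculture against 17.8 and 18.1 in monoculture. Each list of markers of leukocytes (7 genes), endothelium (5) and fat cells (5) summed to at most 3.31 FPKM in any library, and Ptprc, the leukocyte antigen CD45, was near 0. All 10 epithelial markers were at 1 FPKM or more in EpCAM+ and all 10 stromal ones in EpCAM-. The 10 stromal ones also reached 1 FPKM in coculture EpCAM+, at 1.39 to 72.5 FPKM, so this limit does not separate the fractions there. Nothing in the labels states that a group's libraries were grown separately, and the p-values below therefore reflect the spread of these libraries alone, possibly a technical one.

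Changes are differences of log2(FPKM + 1), a scale that shrinks the change of genes with low levels. They were fitted with limma over all 8 libraries for the 12012 genes that reached 1 FPKM in 2 libraries or more. The p-values are adjusted by Benjamini-Hochberg over those 12012, and called means an adjusted p below 0.05. Of the 10 members, 8 were tested. Aldh1a2 and Aldh1a7 were below the limit. Aldh1a1 and Aldh3a1 reached it only through the groups in which they were high, so their being called somewhere follows in part from the filter. The comparisons share libraries in pairs and are not independent of each other.

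The plot of all 10 members by group shows genes mostly in EpCAM+ cells (Aldh1a3, Aldh3a1) and genes higher in EpCAM- cells in both cultures (Aldh1l2, Aldh18a1). For Aldh1a1 and Aldh3b1 the order of the fractions depends on the culture. Aldh7a1 differs little, and Aldh2 differs little between the fractions in coculture but more in monoculture. Aldh1a2 and Aldh1a7 stayed near 0.

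**Figure D1:**
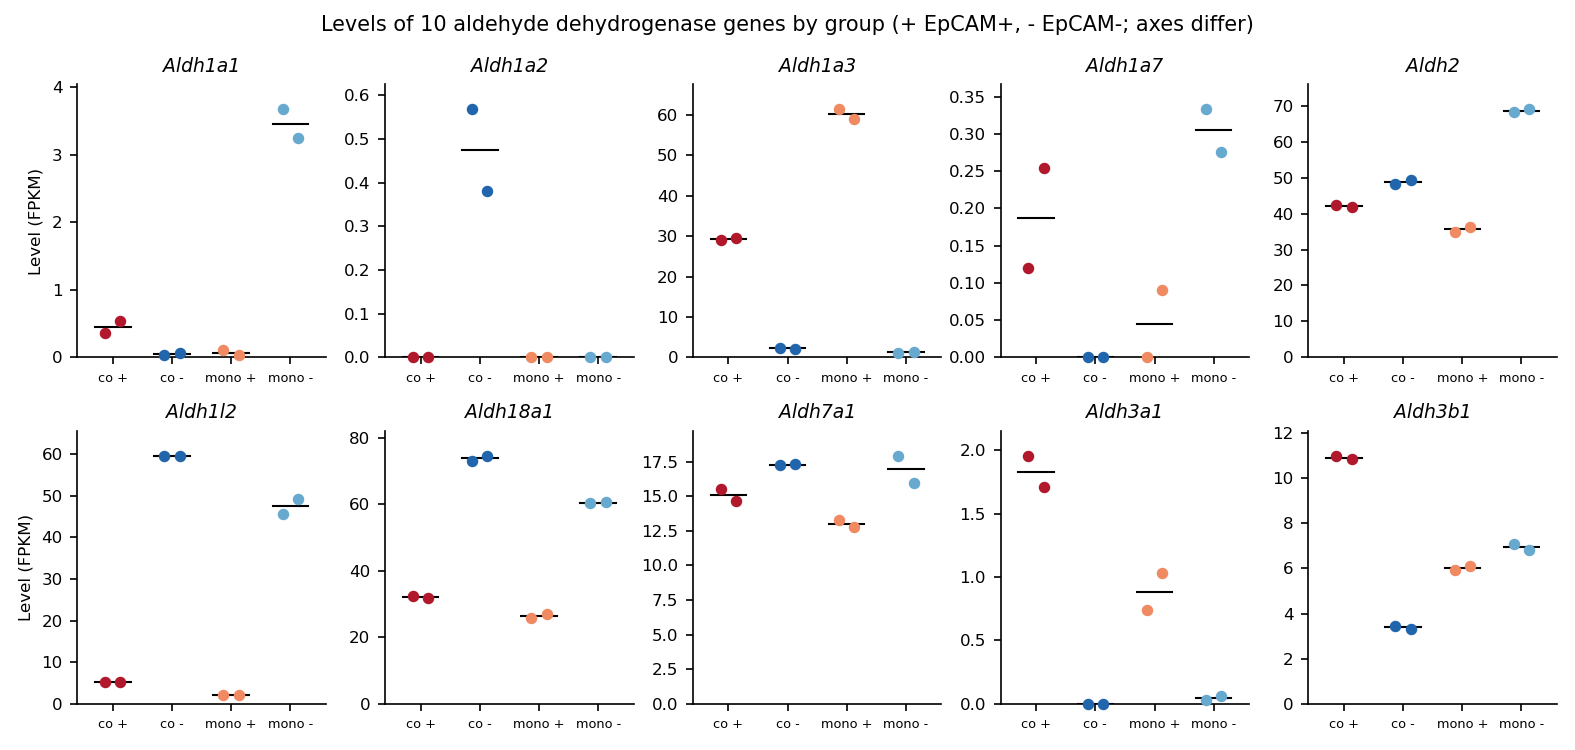
Levels in FPKM (vertical axis, linear and different for each gene) of the 10 aldehyde dehydrogenase genes in the 4 groups (co, coculture; mono, monoculture; + and -, EpCAM+ and EpCAM-). Each point is a library and each line the mean of the group's 2 libraries; Aldh1a3 is high in both EpCAM+ groups, Aldh1l2 in both EpCAM- groups, and Aldh1a1 stands above 3 FPKM only in monoculture EpCAM-.

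Aldh1a3 (ENSMUSG00000015134, mm10 chromosome 7, 66390890 to 66427517, minus strand), whose enzyme makes retinoic acid, had the highest RNA level of the ALDH1A genes in 3 of the 4 groups. Its level was 29.2 and 29.5 FPKM in the libraries of coculture EpCAM+ and 61.4 and 58.9 in monoculture EpCAM+. In EpCAM- cells it was 2.33 and 2.14 in coculture and 1.06 and 1.38 in monoculture. No groups overlapped: both EpCAM+ groups were above both EpCAM- groups, and monoculture was above coculture in EpCAM+ and below it in EpCAM-. EpCAM+ exceeded EpCAM- by 3.23 (SE 0.069, adjusted p = 1.60e-09, limma) in coculture, a 13.1-fold ratio of means. The same difference in monoculture was 4.79 (SE 0.069, adjusted p = 1.56e-10, limma), a 49.3-fold ratio. From coculture to monoculture the gene rose 2.05-fold in EpCAM+ (log2 change 1.01, adjusted p = 1.83e-05, limma) and fell in EpCAM- (log2 change -0.55, adjusted p = 2.43e-04). In bulk samples, fewer cells that carry a gene and less of its RNA per cell cannot be told apart, here or in any comparison below.

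Traces of epithelial marker RNA in the EpCAM- libraries were measured beside Aldh1a3. Across the epithelial markers, coculture EpCAM- libraries held a median of 0.228% and 0.266% of the EpCAM+ level, and monoculture EpCAM- libraries 0.170% and 0.199%. Aldh1a3 stood at 7.96% and 7.31% of its EpCAM+ level in coculture EpCAM-, and at 1.76% and 2.30% in monoculture EpCAM-. These shares were above every epithelial marker's, which reached 0.398% in coculture and 0.304% in monoculture. With the marker share taken off, Aldh1a3 was 2.26 and 2.06 FPKM in coculture EpCAM- and 0.954 and 1.26 in monoculture EpCAM-. The subtraction takes the same share off every gene, and the source of the Aldh1a3 RNA in EpCAM- libraries was not tested.

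Aldh1a1 (ENSMUSG00000053279, chromosome 19, 20492715 to 20643465, plus strand), the cytosolic retinal dehydrogenase and the classic stem cell isoform, was under 1 FPKM in 3 groups. Its libraries read 0.361 and 0.532 FPKM in coculture EpCAM+, 0.0311 and 0.0698 in coculture EpCAM-, and 0.114 and 0.0295 in monoculture EpCAM+. In monoculture EpCAM- they read 3.67 and 3.24. That group stood alone above 1 FPKM, and its mean was 68.6 times that of coculture EpCAM- and 48.4 times that of monoculture EpCAM+, ratios whose lower terms rest on values close to 0. The rise from coculture to monoculture in EpCAM- was 2.08 (SE 0.080, adjusted p = 3.33e-07, limma). A leukocyte marker, picked out after its values were seen, moved with this rise: Lyz2, the lysozyme of macrophages, was 0.156 and 0.427 FPKM in coculture EpCAM-, 3.10 and 3.02 in monoculture EpCAM- and 0 in EpCAM+. The 7 leukocyte markers summed to 0.291 and 0.508 FPKM in coculture EpCAM- and to 3.31 and 3.19 in monoculture EpCAM-, where 5 of the 7 were at 0, Ptprc among them; their part in the result was not tested. The order of the fractions turned over: EpCAM+ was above EpCAM- by 0.46 in coculture (adjusted p = 7.42e-04) and below it by -2.06 in monoculture (adjusted p = 5.29e-08). The coculture value is small and depends on the settings, at 1.86 with a pseudocount of 0.1, 0.78 with 0.5 and 0.22 with quantile normalization. The change with culture differed between the fractions by -2.52 (SE 0.11, adjusted p = 1.06e-06, limma), the largest such difference among the members. In EpCAM+ the gene fell by 0.43 on the log2 scale from coculture to monoculture (adjusted p = 0.00297), at levels where a few reads decide the value; under quantile normalization this was -0.19 with an adjusted p = 0.0750.

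Aldh1a7 (ENSMUSG00000024747, chromosome 19, 20692953 to 20727562, minus strand), a rodent copy of Aldh1a1 that lies close to it on the opposite strand, stayed under 1 FPKM in all 8 libraries. It read 0.120 and 0.254 FPKM in coculture EpCAM+, 0 and 0 in coculture EpCAM-, 0 and 0.0899 in monoculture EpCAM+, and 0.333 and 0.276 in monoculture EpCAM-. Its highest group was thus that of Aldh1a1, and its next highest, coculture EpCAM+, was the next for Aldh1a1 too. The reference transcripts of the pair are 90.3% identical over 2044 aligned bases, with 151 of the 2017 windows of 50 bases in the Aldh1a7 transcript also found in Aldh1a1, and the longest run they share is 100 bases, shorter than the 150-base reads. How reads that match both were counted is not given in the sources used here, so low Aldh1a7 values are uncertain beside Aldh1a1. RefSeq gives Aldh1a1 a pair of starts, and the one further downstream lies inside the gene span given above. In the 120 bases before that start and before the Aldh1a7 start, 105 are identical (87.5%), against 29.2% for the window before the upstream start of Aldh1a1. The similar windows are shown because both genes were highest in the same group, with capitals for the 15 bases that differ (RefSeq, GRCm38.p6, chr19:20601848-20601967 on the plus strand for Aldh1a1 and chr19:20727557-20727676 on the minus strand for Aldh1a7).
Aldh1a1: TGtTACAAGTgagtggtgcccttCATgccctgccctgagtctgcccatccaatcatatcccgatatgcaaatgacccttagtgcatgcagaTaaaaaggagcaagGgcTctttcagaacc
Aldh1a7: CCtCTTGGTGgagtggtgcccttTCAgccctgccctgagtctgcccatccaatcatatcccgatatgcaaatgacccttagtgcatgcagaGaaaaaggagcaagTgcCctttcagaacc
Both hold an octamer, ATGCAAAT, and a CCAAT box within the stretch they share. Searched on both strands of the 250 bases before the start, the octamer occurs in 1.60% of 32851 RefSeq promoters and CCAAT in 33.8%; of the 5 members with a promoter entry, Aldh1a1, Aldh1a2 and Aldh1a7 hold both. The motifs were chosen after the sequences were seen, and a match describes letters, not binding.

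Aldh1a2 (ENSMUSG00000013584, chromosome 9, 71215789 to 71296243, plus strand), the retinal dehydrogenase of the embryo and of mesenchyme, was listed at 0 in 6 libraries. It read 0.568 and 0.382 FPKM in coculture EpCAM-, the only group in which it was seen.

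Summed over the 4 ALDH1A genes, the libraries held 29.6 and 30.3 FPKM in coculture EpCAM+, 2.93 and 2.59 in coculture EpCAM-, 61.5 and 59.1 in monoculture EpCAM+ and 5.06 and 4.91 in monoculture EpCAM-. Aldh1a3 made up 98.4% and 97.4% of that sum in coculture EpCAM+ and 99.8% in both libraries of monoculture EpCAM+. In coculture EpCAM- it was 79.6% and 82.6%. In monoculture EpCAM- it was 20.9% and 28.2%, and Aldh1a1 took 72.5% and 66.1%. The leading ALDH1A transcript was therefore Aldh1a3 in 3 groups and Aldh1a1 in monoculture EpCAM-, where the sum was far below that of either EpCAM+ group.

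Aldh2 (ENSMUSG00000029455, chromosome 5, 121566027 to 121593824, minus strand), the mitochondrial enzyme that clears acetaldehyde, was high everywhere. It read 42.3 and 41.9 FPKM in coculture EpCAM+, 48.2 and 49.4 in coculture EpCAM-, 35.0 and 36.3 in monoculture EpCAM+ and 68.1 and 69.0 in monoculture EpCAM-. The groups did not overlap, yet the highest mean was only 1.92 times the lowest. EpCAM+ was lower by -0.21 (SE 0.026, adjusted p = 1.06e-04, limma) in coculture and by -0.92 (adjusted p = 7.95e-09) in monoculture. The former value depends on the scale: scaled by the median of ratios it was -0.50. From coculture to monoculture Aldh2 rose in EpCAM- (0.48, adjusted p = 2.35e-06) and fell in EpCAM+ (-0.24, adjusted p = 2.38e-04).

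Aldh1l2 (ENSMUSG00000020256, chromosome 10, 83487450 to 83534140, minus strand), the mitochondrial formyl-tetrahydrofolate dehydrogenase, was the member most strongly tied to EpCAM- cells. Its libraries read 59.5 and 59.6 FPKM in coculture EpCAM- and 45.6 and 49.3 in monoculture EpCAM-. EpCAM+ libraries read 5.15 and 5.25 in coculture and 2.12 and 2.12 in monoculture. EpCAM+ was lower by -3.29 (SE 0.040, adjusted p = 7.55e-11, limma) in coculture and by -3.96 (adjusted p = 2.69e-11) in monoculture, with EpCAM- means 11.5 and 22.4 times those of EpCAM+. The gene was lower in monoculture in both fractions, by -0.99 in EpCAM+ (adjusted p = 1.24e-06) and -0.32 in EpCAM- (adjusted p = 2.27e-04).

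Stromal RNA in the EpCAM+ libraries moves with this result. In coculture EpCAM+ the median stromal marker stood at 1.71% of its EpCAM- level in both libraries (range 1.58% to 1.97%), and in monoculture EpCAM+ at 0.121% and 0.133%. Aldh1l2 stood at 8.64% and 8.82% of its EpCAM- level in coculture EpCAM+, and at 4.46% in both libraries of monoculture EpCAM+. With the marker share taken off, 4.13 and 4.24 FPKM remained in coculture EpCAM+ and 2.06 and 2.05 in monoculture EpCAM+, and the difference in the change with culture between the fractions went from -0.67 to -0.44 (adjusted p = 3.62e-04, limma). Of the 7503 exon bases of Aldh1l2, 1056 (14.1%) overlap D10Wsu102e on the opposite strand, whose group means lay between 14.5 and 20.3 FPKM; whether the counting used strand is not given in the sources used here, so part of the low EpCAM+ values of Aldh1l2 cannot be told apart from reads of D10Wsu102e.

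Aldh18a1 (ENSMUSG00000025007, chromosome 19, 40550257 to 40588463, minus strand), the pyrroline-5-carboxylate synthase that starts proline synthesis from glutamate, was also higher in EpCAM- cells. It read 32.4 and 31.9 FPKM in coculture EpCAM+, 73.0 and 74.6 in coculture EpCAM-, 25.8 and 27.1 in monoculture EpCAM+ and 60.4 and 60.6 in monoculture EpCAM-. The ratio of EpCAM- to EpCAM+ was 2.29 in both cultures, with log2 differences of -1.17 (SE 0.028, adjusted p = 3.39e-09, limma) and -1.16 (adjusted p = 3.20e-09). The gene fell from coculture to monoculture by 0.28 on the log2 scale in each fraction (adjusted p = 1.59e-04 in EpCAM+ and 6.85e-05 in EpCAM-). The difference between these changes was 0.01 with a 95% interval of -0.09 to 0.10 (adjusted p = 0.889).

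Aldh7a1 (ENSMUSG00000053644, chromosome 18, 56509687 to 56572951, minus strand), which oxidises the semialdehyde of lysine breakdown, varied least. It read 15.5 and 14.7 FPKM in coculture EpCAM+, 17.2 and 17.3 in coculture EpCAM-, 13.3 and 12.8 in monoculture EpCAM+ and 17.9 and 16.0 in monoculture EpCAM-. EpCAM+ was lower by -0.18 in coculture (SE 0.055, adjusted p = 0.0135, limma), a call lost without coculture EpCAM+ replicate 2 (adjusted p = 0.0851) or coculture EpCAM- replicate 2 (adjusted p = 0.0515). Scaled by the median of ratios it was larger, -0.46 (adjusted p = 6.31e-05), and by quantiles -0.43 (adjusted p = 1.06e-04). In monoculture it was lower by -0.35 (adjusted p = 3.64e-04), or -0.60 scaled by the median of ratios. In EpCAM- the cultures overlapped, with a change of -0.03 (95% interval -0.15 to 0.10, adjusted p = 0.698). In EpCAM+ the fall of -0.20 (adjusted p = 0.0183) did not hold when values were scaled by the median of ratios (adjusted p = 0.0528) or by quantiles (adjusted p = 0.141), or without coculture EpCAM+ replicate 1 (adjusted p = 0.105) or monoculture EpCAM+ replicate 2 (adjusted p = 0.0957). Phax, on the opposite strand, shares 300 of its 5181 exon bases (5.79%) and had group means of 21.6 to 32.2 FPKM.

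Aldh3a1 (ENSMUSG00000019102, chromosome 11, 61207537 to 61218421, plus strand), which oxidises aromatic and lipid aldehydes and is known as a target of the aryl hydrocarbon receptor, was a low EpCAM+ transcript. Its libraries read 1.96 and 1.71 FPKM in coculture EpCAM+ and 0.740 and 1.03 in monoculture EpCAM+. EpCAM- libraries were listed at 0 and 0 in coculture and read 0.0334 and 0.0598 in monoculture. EpCAM+ was higher by 1.50 (SE 0.081, adjusted p = 4.78e-07, limma) in coculture and by 0.84 (adjusted p = 1.72e-05) in monoculture. With EpCAM- at or near 0 the pseudocount sets these sizes, and with 0.1 in place of 1 they were 4.27 and 2.74. In EpCAM+ it fell by 0.59 on the log2 scale from coculture to monoculture (adjusted p = 6.78e-04), and in EpCAM- the change was 0.07 (95% interval -0.12 to 0.25, adjusted p = 0.516).

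Aldh3b1 (ENSMUSG00000024885, chromosome 19, 3913491 to 3929808, minus strand), a membrane-bound enzyme for lipid aldehydes, changed in opposite directions in the fractions. It read 11.0 and 10.8 FPKM in coculture EpCAM+ and 3.47 and 3.30 in coculture EpCAM-. In monoculture it read 5.92 and 6.11 in EpCAM+ and 7.10 and 6.83 in EpCAM-. EpCAM+ was thus the higher fraction in coculture, by 1.44 (SE 0.043, adjusted p = 1.13e-08, limma), and the lower one in monoculture, by -0.18 (adjusted p = 0.00392; -0.41 when scaled by the median of ratios). The gene fell by 0.76 on the log2 scale from coculture to monoculture in EpCAM+ (adjusted p = 6.61e-06) and rose by 0.86 in EpCAM- (adjusted p = 1.38e-06), a difference of -1.62 between the fractions (SE 0.060, adjusted p = 4.63e-07). Its transcript shares 163 of 1875 windows of 50 bases with Aldh3b3, which, like Aldh3b2, was listed at 0 in all 8 libraries. The 7 members other than Aldh1a1, Aldh1a7 and Aldh3b1 share no such window with another gene of the family.

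The members' order within a group differed between the fractions. In coculture EpCAM+ it ran Aldh2, Aldh18a1, Aldh1a3, Aldh7a1, Aldh3b1, Aldh1l2, Aldh3a1, Aldh1a1, Aldh1a7 and, at 0, Aldh1a2. In monoculture EpCAM+ Aldh1a3 moved to the front, before Aldh2 and Aldh18a1. In coculture EpCAM- Aldh18a1 led, then Aldh1l2 and Aldh2, and in monoculture EpCAM- Aldh2 led, then Aldh18a1 and Aldh1l2, with Aldh1a1 the sixth and Aldh1a3 the seventh. Neighbours in these orders overlapped between libraries only at the foot of the list, among Aldh1a1, Aldh1a7 and Aldh1a2 in monoculture EpCAM+ and where Aldh1a7 and Aldh3a1 were both at 0 in coculture EpCAM-.

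The 10 members together held 138 and 137 FPKM in coculture EpCAM+, 144 and 144 in monoculture EpCAM+, 204 and 207 in coculture EpCAM- and 204 and 207 in monoculture EpCAM-. Sums were thus close between the cultures while their make-up was not. Aldh1a3 held 21.1% and 21.6% of the sum in coculture EpCAM+ and 42.5% and 40.8% in monoculture EpCAM+, against 1.14% and 1.04% in coculture EpCAM- and 0.517% and 0.670% in monoculture EpCAM-. Aldh1l2 held 29.1% and 28.8% in coculture EpCAM- and 22.3% and 23.8% in monoculture EpCAM-, against at most 3.85% in EpCAM+. Aldh18a1 held 35.7% and 36.1% in coculture EpCAM- and 29.6% and 29.3% in monoculture EpCAM-. The members made up 66.8% to 80.4% of the FPKM of all 21 family genes. These are shares of RNA per length, and not of enzyme or of activity.

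**Figure D2:**
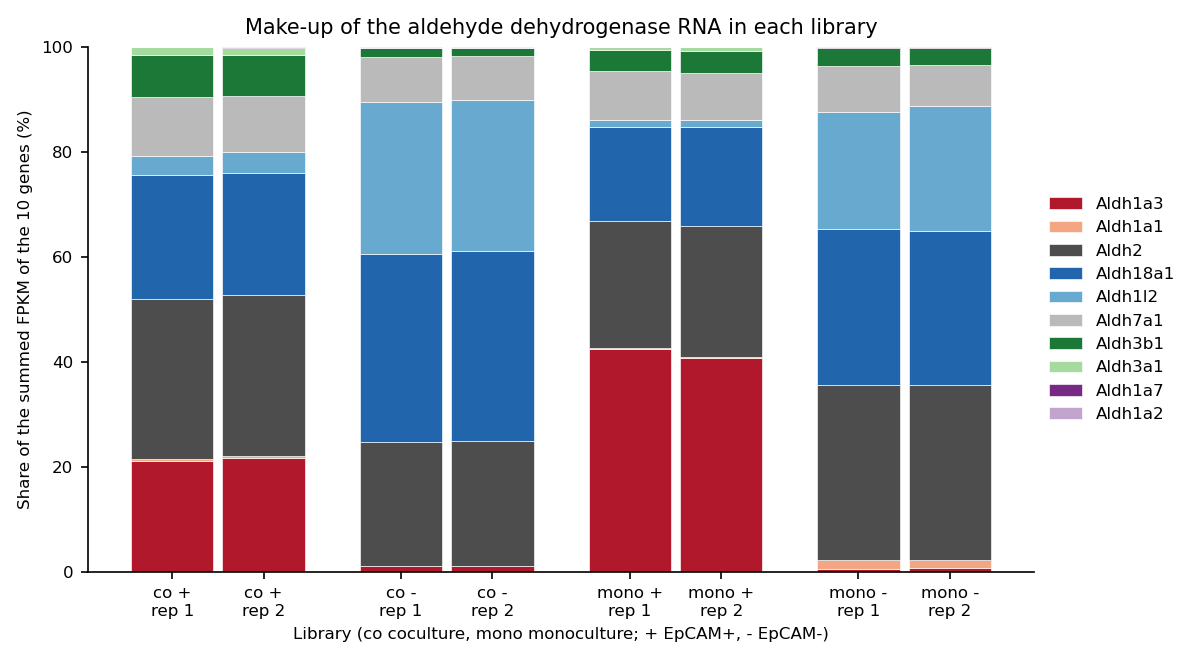
Share (vertical axis, percent) of the summed FPKM of the 10 members that each gene holds, as a stacked bar for each of the 8 libraries, in pairs by group. The red segment, Aldh1a3, covers 40.8% to 42.5% of monoculture EpCAM+ and at most 1.14% of either EpCAM- group, where both blues, Aldh18a1 and Aldh1l2, fill over 50% of each bar.

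Read against all genes, calls of the members were common because calls were common. In coculture, all 8 tested members were called between the fractions, while 87.2% of all tested genes were; 4 were higher in EpCAM+ (59.2% of all genes) and 4 lower (28.0%). A stricter count took only called genes that differed by 1 or more on the log2(FPKM + 1) scale: 3 were higher (16.5%) and 2 lower (10.1%), 5 in all against 26.5% of all genes. In monoculture all 8 were called (87.9% of all genes), 2 higher (55.4%) and 6 lower (32.4%), and by the stricter count 1 higher (15.5%) and 3 lower (12.6%), 4 in all against 28.1%. From coculture to monoculture in EpCAM+ all 8 were called (51.4% of all genes), 1 higher (16.4%) and 7 lower (34.9%). On that scale Aldh1a3 alone passed 1 (1.94% of all genes; 0.266% higher and 1.67% lower) and Aldh1l2 was just short of it, while by ratio of mean FPKM coculture exceeded monoculture 2.45-fold for Aldh1l2, 2.07-fold for Aldh3a1 and 6.25-fold for Aldh1a1. In EpCAM- 6 of 8 were called (62.7%), 3 higher (32.4%) and 3 lower (30.3%), and Aldh1a1 alone passed 1 (4.52%; 2.56% higher and 1.96% lower), with Aldh3b1 at a ratio of means of 2.06. The change with culture differed between the fractions for 6 of 8 members (65.2% of all genes), being higher in EpCAM+ for 1 (26.0%) and lower for 5 (39.2%). By 1 or more it was higher for Aldh1a3 (2.43%) and lower for Aldh1a1 and Aldh3b1 (5.66%), 3 in all against 8.09%. The libraries of the groups compared did not overlap for 8 of 8 members in coculture (93.4% of all genes), 8 in monoculture (93.3%), 8 between cultures in EpCAM+ (77.4%) and 7 in EpCAM- (80.0%). The members' median log2 difference between the fractions was 0.14 in coculture and -0.64 in monoculture, beside 0.26 and 0.23 for all genes; these last fall to 0.00 and 0.01 when values are scaled by the median of ratios, which turned no called member. The split of all genes by direction moves with the scaling too. In coculture 7107 genes were higher and 3366 lower in EpCAM+, and 5011 and 5041 with the median of ratios; in monoculture 6657 and 3897 became 5173 and 5113. From coculture to monoculture in EpCAM+, 1972 higher and 4198 lower became 2725 and 3233 with the median of ratios and 3168 and 2624 with quantiles, and for the interaction 3120 and 4706 became 4111 and 3583 with quantiles. The median change from coculture to monoculture was -0.35 in EpCAM+ and 0.02 in EpCAM-, beside -0.06 and 0.00 for all genes.

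**Figure D3:**
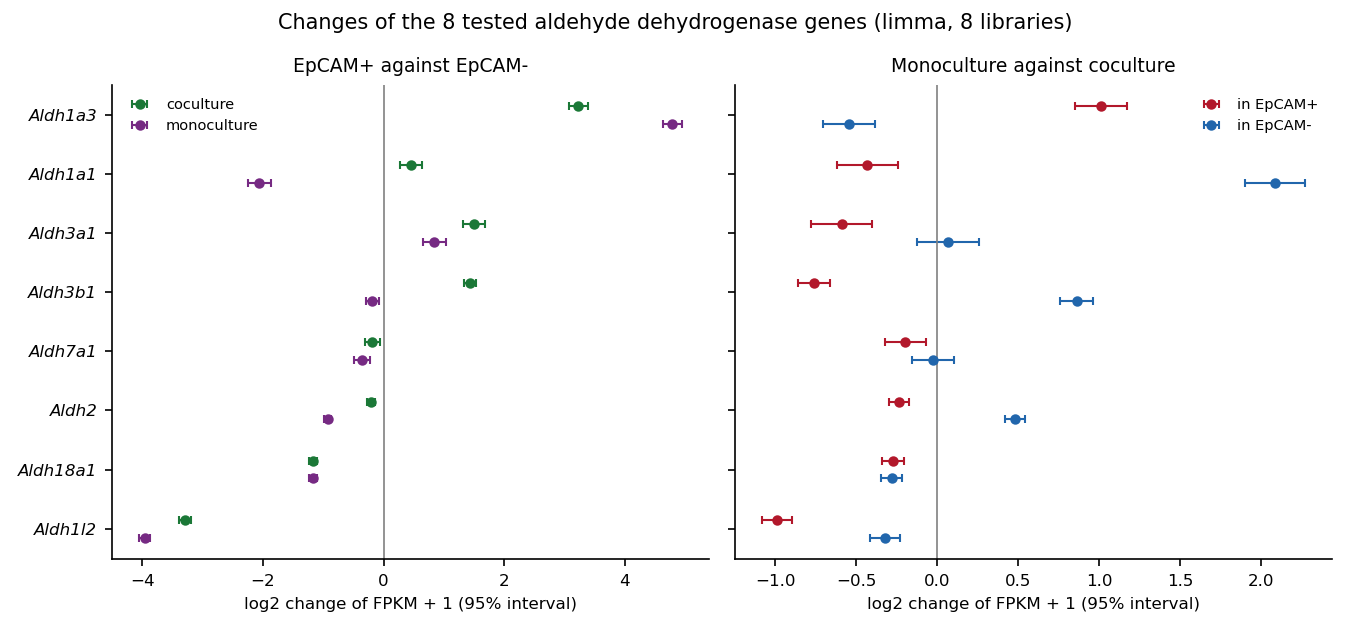
log2 change of FPKM + 1 (horizontal axis, with 95% intervals from limma over 8 libraries) of the 8 tested members, on the left EpCAM+ against EpCAM- in each culture and on the right monoculture against coculture in each fraction; points right of 0 are higher in EpCAM+ or in monoculture. Aldh1a1 and Aldh3b1 cross 0 between the cultures on the left, and on the right Aldh1a3 lies on the other side of 0 from most members in EpCAM+.

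Counts in the gene lists that follow are to be read against the shares of all genes above, for EpCAM+ against EpCAM- 59.2% higher and 28.0% lower in coculture and 55.4% and 32.4% in monoculture. Of the 11 other family genes, 7 were tested, and in coculture 5 were higher and 2 lower in EpCAM+, in monoculture 4 and 3. Aldh9a1, Aldh16a1 and Aldh3a2, an enzyme of fatty aldehydes, lay between 11.3 and 20.4 FPKM in every library, above Aldh3b1 and near Aldh7a1. Aldh1l1, the cytosolic counterpart of Aldh1l2, was on the EpCAM- side as well: 3.40 and 3.23 FPKM in coculture EpCAM- against 0.148 and 0.126 in EpCAM+ (log2 difference -1.92, adjusted p = 1.08e-08, limma), and it fell to 0.590 and 0.471 in monoculture EpCAM-. Aldh4a1, which breaks down the proline intermediate that ALDH18A1 makes, was on the EpCAM+ side, 5.00 and 5.22 against 2.76 and 2.49 in coculture (0.75, adjusted p = 2.17e-05). Aldh5a1, of GABA breakdown, was higher in EpCAM+ too (1.16 in coculture, adjusted p = 4.04e-07), and Aldh6a1, of valine breakdown, lower in monoculture EpCAM+ (-1.19, adjusted p = 1.71e-07).

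Genes that supply retinal to the ALDH1A enzymes were split between the fractions. Of 15 genes of retinol uptake, storage and oxidation, 10 were tested; 5 were higher, 4 lower and 1 not called in coculture EpCAM+, and 4, 5 and 1 in monoculture. Rdh10, which oxidises retinol to retinal, stood with Aldh1a3 on the EpCAM+ side: 91.8 and 89.0 FPKM against 5.22 and 5.99 in coculture (3.79, adjusted p = 1.50e-10, limma) and 61.2 and 58.9 against 6.03 and 6.10 in monoculture (3.11). Dhrs3, which turns retinal back to retinol, was on the EpCAM- side: 11.7 and 12.6 against 100.3 and 98.6 in coculture (-2.93, adjusted p = 9.47e-11). From coculture to monoculture in EpCAM+, where Aldh1a3 rose, Rdh10 fell (-0.58, adjusted p = 8.50e-05).

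The genes that bind, read and break down retinoic acid were also divided. Of 17 listed, 11 were tested; in coculture 3 were higher and 8 lower in EpCAM+, in monoculture 4 were higher, 5 lower and 2 not called, and from coculture to monoculture 2 rose, 8 fell and 1 was not called in EpCAM+ against 2, 6 and 3 in EpCAM- (of all genes, 16.4% rose and 34.9% fell in EpCAM+, and 32.4% and 30.3% in EpCAM-). Crabp2, which carries retinoic acid to its receptors, was 20.8 and 22.5 FPKM in coculture EpCAM+ against 0.365 and 0.712 in EpCAM- (3.89, adjusted p = 8.20e-09, limma). Of the enzymes that degrade retinoic acid, Cyp26a1 was on the EpCAM+ side (5.80 and 5.81 against 0.123 and 0.0832 in coculture, 2.63, adjusted p = 8.73e-09) and Cyp26b1 on the EpCAM- side (1.57 and 1.76 against 8.16 and 7.38 in monoculture, -1.72, adjusted p = 4.83e-08). Cyp26a1, a gene that retinoic acid is known to induce, fell in EpCAM+ to 1.61 and 2.05 in monoculture (-1.27, adjusted p = 8.32e-06). Rarb, a receptor gene also induced by retinoic acid, was 20.2 and 20.1 in coculture EpCAM- and 6.18 and 6.67 in monoculture EpCAM- (-1.51, adjusted p = 1.04e-07). Tgm2, a transglutaminase with the same property, was on the EpCAM- side in both cultures and fell in EpCAM+ from 6.26 and 6.52 to 2.18 and 2.16 (-1.22, adjusted p = 1.49e-07). The rise of Aldh1a3 RNA in monoculture EpCAM+ cells was thus accompanied by lower RNA of Cyp26a1, Tgm2 and Crabp2, while 2 of the 11 tested genes rose there. Stromal markers stood at 1.71% of their EpCAM- level in coculture EpCAM+ and at 0.121% and 0.133% in monoculture EpCAM+. Whether that RNA has a part in the fall of Tgm2 was not tested. Retinoic acid itself was not measured.

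**Figure D4:**
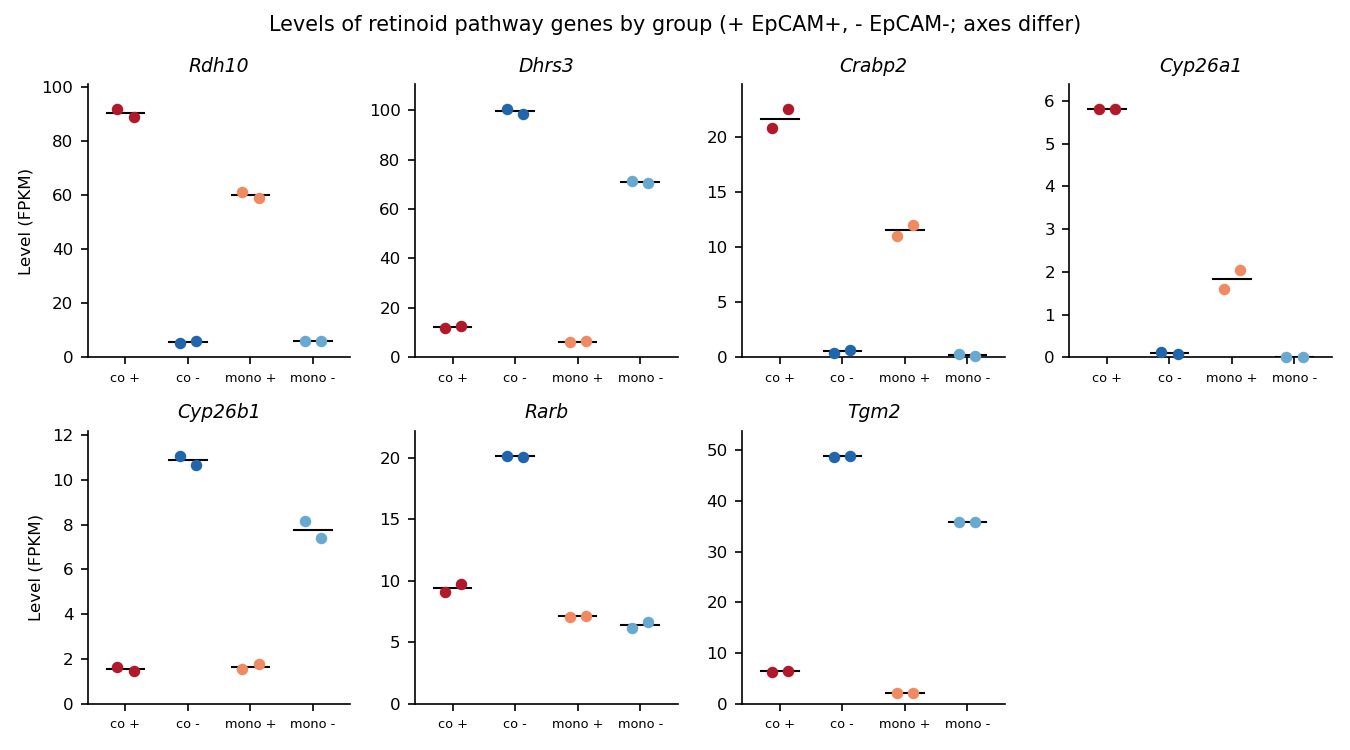
Levels in FPKM (vertical axis, linear and different for each gene) of 7 genes of retinoid metabolism and response in the 4 groups, with a point for each library and a line for the mean of 2. Rdh10, Crabp2 and Cyp26a1 are high in both EpCAM+ groups and Dhrs3, Cyp26b1 and Tgm2 in both EpCAM- groups, while Rarb is highest in coculture EpCAM- at 20.1 and 20.2.

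Around Aldh18a1, 8 of 10 genes of proline and glutamate metabolism were tested, with 3 higher and 5 lower in EpCAM+ in coculture and 4 and 4 in monoculture. Pycr1, which completes proline synthesis, was lower in EpCAM+ as Aldh18a1 was: 1.14 and 1.47 FPKM against 5.24 and 5.45 in coculture (-1.46, adjusted p = 3.74e-07, limma). Oat, which feeds the same intermediate from ornithine, was lower as well (-0.85, adjusted p = 3.84e-08), and Prodh, which breaks proline down, was higher, 2.56 and 2.48 against 0.651 and 0.614 (1.11, adjusted p = 1.28e-07). Around Aldh1l2, all 14 genes of folate and serine metabolism were tested. In EpCAM+ 7 were higher and 7 lower in coculture, and 7 were higher, 6 lower and 1 not called in monoculture. Psat1, of serine synthesis, was 132 and 131 against 291 and 292 in coculture (-1.14, adjusted p = 2.52e-10, limma). Mthfd2, the mitochondrial folate enzyme, was 71.1 and 73.9 against 132 and 130 (-0.84, adjusted p = 9.35e-09). Shmt1 went the other way, with 13.6 and 14.8 in monoculture EpCAM+ against 4.02 and 3.73 in monoculture EpCAM- (1.64, adjusted p = 1.96e-08). From coculture to monoculture in EpCAM-, where Aldh1l2 fell, 9 of the 14 fell, none rose and 5 were not called, while 30.3% of all genes fell and 32.4% rose. Of 7 genes of lysine and choline breakdown, the pathway of Aldh7a1, only Gcdh and Sardh were tested; Gcdh was higher in EpCAM+ (1.04 in coculture, adjusted p = 3.03e-05).

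Other enzymes that remove aldehydes could add to, or stand in for, the family. Of 15 listed oxidases, reductases and conjugating enzymes, 10 were tested; from coculture to monoculture in EpCAM-, 8 rose, none fell and 2 were not called (32.4% of all genes rose and 30.3% fell). In EpCAM+ none rose, 7 fell and 3 were not called (16.4% and 34.9%). Gsta4, the glutathione transferase for the lipid aldehyde 4-hydroxynonenal, was 191 and 196 FPKM in coculture EpCAM+ against 6.95 and 5.90 in EpCAM- (4.72, adjusted p = 8.74e-11, limma), and rose in EpCAM- to 36.1 and 34.6 in monoculture (2.30, adjusted p = 4.81e-08). Cbr3, a carbonyl reductase, rose in EpCAM- from 10.8 and 11.1 to 24.0 and 22.9 (1.03, adjusted p = 1.12e-06). Of 16 genes of the NRF2 and aryl hydrocarbon receptor responses, which are known to govern several family members, 15 were tested. From coculture to monoculture in EpCAM-, 11 rose, 3 fell and 1 was not called (32.4% and 30.3% of all genes rose and fell). In EpCAM+ 5 rose, 8 fell and 2 were not called (16.4% and 34.9%). Among the members in EpCAM-, Aldh1a1, Aldh2 and Aldh3b1 rose, and Aldh1a3, Aldh1l2 and Aldh18a1 fell. Aldh3a1 and Aldh7a1 were not called there. A link between this list and the members was not tested. Nqo1, a shared target, rose in EpCAM- from 5.09 and 4.98 to 29.9 and 28.3 (2.32, adjusted p = 2.06e-08), while Ahr, the receptor gene, was on the EpCAM+ side as Aldh3a1 was (29.6 and 29.4 against 1.22 and 1.62 in coculture; 3.66, adjusted p = 9.08e-10). Cyp1b1, a classic target of the receptor, rose in both fractions. It went to 80.3 and 80.0 from 36.5 and 36.3 in EpCAM+ (1.12), and to 92.4 and 97.0 from 18.1 and 18.6 in EpCAM- (2.30). Cyp1a1, of the same list, rose in EpCAM+ from 0.764 and 0.677 to 2.21 and 2.36 (0.93) and read at most 0.0950 in EpCAM-. Aldh3a1 fell in EpCAM+. Whether the receptor has a part in the Aldh3a1 levels was not tested.

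For each member whose group means spanned 1 or more on the log2 scale, the 3 tested genes with the closest pattern over the 4 group means were taken, by the root mean square difference of centred log2 values. Members and genes with Gm or Rik names were left out of the candidates. For Aldh1a3 these were St8sia2 (0.084), Csf2 (0.16) and Gdpd5 (0.30), and for Aldh1a1 Mylk (0.11), Ephx1 (0.17) and Lfng (0.18). For Aldh1l2 they were Akap2 (0.15), Clip3 (0.22) and Slc38a1 (0.25), and for Aldh18a1 Fads1 (0.028), Psat1 (0.029) and Maged1 (0.040). For Aldh3a1 they were Spink8 (0.025), Lonrf3 (0.032) and Nr3c2 (0.032), and for Aldh3b1 Pik3ip1 (0.076), Ksr1 (0.082) and Txndc16 (0.095). Ephx1, an epoxide hydrolase, lay at 73.8, 46.3 and 46.1 FPKM in coculture EpCAM+, coculture EpCAM- and monoculture EpCAM+ and at 164 in monoculture EpCAM-, as means. With 4 group means, candidates drawn from the 12012 tested genes and shared libraries, such likeness is a description.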

How the data were processed

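The authors deposited FPKM per gene, in a file for each of the 8 libraries of total RNA read as 150 bp pairs. Tools in the submitters' processing notes are cutadapt, FastQC, HISAT2, HTSeq, SAMtools and edgeR, without versions, with build mm10. Not given in the sources used here: the tool that wrote the FPKM, its annotation, any scaling between libraries, and the use of strand or multi-mapped reads. Whole reads could not be recovered, so no counting interval is given. Positions are from GENCODE M21 (GRCm38, the build mm10) and promoters from RefSeq.

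limma 3.58.1 (R 4.3.3) modelled log2(FPKM + 1) by 4 group means (4 residual degrees of freedom, eBayes with trend), tested on simulated data first. The interaction is monoculture minus coculture in EpCAM+, less the same in EpCAM-. The other fraction's share was the median over 10 markers of the level in a library as a percent of the other fraction's mean. Python 3.11.15 and pandas 2.3.3 made the tables.

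The members, gene lists and named genes (all members, up to 3 called genes with the largest changes per list and comparison at 1 FPKM or more, and the 3 nearest patterns) were chosen with earlier results of these data known; 1 gene this rule names is not reported here. Aldh1a3, Aldh1l2, Aldh2, Aldh3a1 and Aldh7a1 promoters were not analysed here. Alternatives were pseudocounts, filters, scalings, eBayes options, a replicate block, the 4 libraries compared alone, each library left out and the other fraction's share subtracted. The genes tested were not chosen anew when a library was left out.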

Additional observations from a re-analysis of the deposited data

Results flagged for a closer look

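For 6 members the change from coculture to monoculture differed between the fractions by the interaction test of limma over 8 libraries. The log2 difference, EpCAM+ minus EpCAM-, was -2.52 for Aldh1a1 (95% interval -2.78 to -2.25), which rose in EpCAM- and fell in EpCAM+. It was -1.62 for Aldh3b1, which fell in EpCAM+ and rose in EpCAM-, and 1.56 for Aldh1a3, which did the opposite. Aldh2 gave -0.72, Aldh1l2 -0.67 and Aldh3a1 -0.66. All 6 kept their direction in each of the 8 fits that left out a library, with Aldh1a1 at -2.60 to -2.43. The genes tested in those fits were the ones chosen from all 8 libraries. Aldh1a1 reached 1 FPKM only in the 2 monoculture EpCAM- libraries. Without either of them it would have been below the limit for testing. Of all genes tested, 65.2% passed this test, so a call alone sets none of the 6 apart. Stromal markers stood at 1.71% of their EpCAM- level in coculture EpCAM+ and at 0.121% and 0.133% in monoculture EpCAM+; with that share taken off, Aldh1l2 gave -0.44.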

How the results depend on the processing

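Over 20 alternative settings, 768 of 782 values of the members' changes kept their direction and their side of the threshold. The number of called members that changed by 1 or more on the log2(FPKM + 1) scale from coculture to monoculture, 1 in each fraction, was the least settled. In EpCAM+ it was 3 with a pseudocount of 0.1, 2 with 0.5, and 0 to 2 with a library left out, since Aldh1a3 (1.01) and Aldh1l2 (-0.99) lie at the limit: 0 without monoculture EpCAM+ replicate 1 and 2 without coculture EpCAM+ replicate 1. In EpCAM- it was 2 with a pseudocount of 0.1 and 0 with a filter of 5 FPKM, which leaves Aldh1a1 out. As a share of all 21 family genes, Aldh1a3 held 14.3% in coculture EpCAM+, 0.874% in coculture EpCAM-, 30.4% in monoculture EpCAM+ and 0.470% in monoculture EpCAM-; with the other fraction's share subtracted, it held 21.9% of the 10 members in coculture EpCAM+. Only values not called changed sign: Aldh7a1 in EpCAM- between cultures (from -0.10 to 0.051 with 1 library left out; above 0 without monoculture EpCAM- replicate 2) and the interaction of Aldh18a1 (-0.0037, -0.0081 and -0.027 without replicate 2 of coculture EpCAM+, coculture EpCAM- and monoculture EpCAM+). With a pseudocount of 0.1, Aldh3a1 was called between the cultures in EpCAM- (0.55, adjusted p = 0.0341), and low genes moved most: the interaction of Aldh1a1 was -6.27. The labels do not say whether libraries of the same replicate number are paired. Differences between replicates 1 and 2 correlated between groups at -0.073 to 0.041, and values near 0 cannot exclude pairing. With a replicate block, only the interaction of Aldh7a1 changed its call (-0.17, adjusted p = 0.0464, limma). Depth in reads is unknown, so levels under about 1 FPKM are the least sure.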
